A study of Mus musculus with 4 samples.

Results

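The miR-17-92 cluster is a group of microRNAs (miRNAs) that are cut from a shared primary transcript. Its members were taken by name from the miRNA tables of the study. They are mmu-miR-17-5p, mmu-miR-18a-5p, mmu-miR-19a-3p, mmu-miR-20a-5p, mmu-miR-19b-3p and mmu-miR-92a-3p, written below without the mouse prefix, which makes 6 of the 1908 mature mouse miRNAs that had a sense alignment in any library. The study sequenced small RNA from 4T1 and 4TO7, which are related mouse mammary carcinoma lines, and from their extracellular vesicles (EVs), small membrane-enclosed bodies that cells shed together with some of their RNA. There were 4 libraries and 1 library per group: 4T1 cells, 4T1 EVs, 4TO7 cells and 4TO7 EVs. Per the labels, no genetic change or drug was applied to either line. All cultures were kept in DMEM containing 10% fetal bovine serum depleted of EVs, and the vesicles were pelleted through a series of spins that ended in 2 steps of ultracentrifugation. RNA was taken up in Trizol, depleted of ribosomal RNA, cut from a gel at miRNA size and made into libraries with a NEBNext small RNA kit.

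A polycistron is a transcript from which several hairpins are excised, each of which yields a mature guide strand and a less abundant passenger strand. The guide is loaded into an Argonaute protein and finds target mRNAs through its seed, the bases near its 5′ end. The miR-17-92 host gene is a target of Myc, and the cluster is known as an oncogene in lymphoma and for its part in cell proliferation. Members of the miR-17 and miR-20a type repress cell cycle and apoptosis regulators such as p21 and Bim, the miR-19 pair is known for its part in the cluster's oncogenic action, and miR-92a is known for its action in endothelial cells. Members can also be compared with each other inside a library, which needs no library size.

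The mature sequences from RefSeq (GRCm38.p6) are shown because they set both the seed groups and the reads that members share. Capitals mark the seed, bases 2 to 8 counted from the 5′ end.
miR-17-5p: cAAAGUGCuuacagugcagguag
miR-20a-5p: uAAAGUGCuuauagugcagguag
miR-106a-5p: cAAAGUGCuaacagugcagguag
miR-18a-5p: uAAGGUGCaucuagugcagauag
miR-19a-3p: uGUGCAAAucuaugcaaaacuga
miR-19b-3p: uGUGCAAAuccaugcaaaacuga
miR-92a-3p: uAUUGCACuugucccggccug
miR-17-5p and miR-20a-5p have the same seed and differ by C1U and C12U, with positions counted from 1 at the 5′ end of the first-named miRNA. miR-106a-5p, a paralog on chromosome X that is not a member, differs from miR-17-5p by U10A alone. miR-19a-3p and miR-19b-3p differ by U11C alone. The seed of miR-92a-3p is shared with no other member. The first 5 members in genome order are annotated at 23 nt, and miR-92a-3p is annotated at 21 nt.

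The 6 mature sequences lie within 813 nt on the plus strand of chromosome 14, in the order miR-17-5p (chr14:115043684-115043706), miR-18a-5p (chr14:115043867-115043889), miR-19a-3p (chr14:115044048-115044070), miR-20a-5p (chr14:115044183-115044205), miR-19b-3p (chr14:115044358-115044380) and miR-92a-3p (chr14:115044476-115044496). In the GENCODE M21 annotation of GRCm38, all 6 lie in exon 2 (chr14:115043271-115046727) of the long noncoding host gene Mir17hg. miR-19b-3p and miR-92a-3p each have 2 loci, on chromosome 14 and, with the same mature sequence, on chromosome X (chrX:52741991-52742013 and chrX:52741854-52741874, minus strand). Reads of these members therefore cannot be assigned to the chromosome 14 transcript alone. The hairpins of the miR-92a pair, with the mature 3p sequence in capitals, are shown because the bases that follow the mature end become relevant to the read lengths.
Mir92-1, chr14:115044427-115044506, plus strand: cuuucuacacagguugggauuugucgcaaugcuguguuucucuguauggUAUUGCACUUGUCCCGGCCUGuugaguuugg
Mir92-2, chrX:52741838-52741928, minus strand: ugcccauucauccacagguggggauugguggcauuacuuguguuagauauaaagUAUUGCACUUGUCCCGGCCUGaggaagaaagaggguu

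Values below are sense alignments of 18 nt or more, given as reads and as reads per 1000000 such miRNA alignments of the library (RPM). These totals were 57962 in 4T1 EVs, 51697 in 4TO7 EVs, 603186 in 4T1 cells and 177647 in 4TO7 cells, so 3 reads, the limit that a count of 0 allows, equal between 4.97 RPM in 4T1 cells and 58.0 RPM in 4TO7 EVs. The EV totals are the smaller, and EV values have the wider intervals. Intervals are exact 95% intervals of counting error only, since the reads carried no molecular identifiers, and with 1 library per group no spread between cultures can be estimated. The comparisons are therefore between libraries, and no p-value is given. Of the epithelial miRNAs, 5 of 6 had reads in 4T1 cells (3922 reads summed), against 2 of 6 in 4TO7 cells (42 reads), where miR-200a-3p, miR-200c-3p, miR-141-3p and miR-429-3p were at 0 and miR-205-5p had 41 of the 42 reads, against 0 in 4T1 cells. The 6 summed to 384 reads in 4T1 EVs and 5 in 4TO7 EVs. The myeloid markers miR-223-3p and miR-142a-3p had 0 reads in all 4 libraries. Erythroid markers had 0 reads in both cell libraries, 2 in 4T1 EVs (34.5 RPM) and 9 in 4TO7 EVs (174 RPM). The lymphoid marker had at most 1 read. Muscle markers summed to 154 reads in 4T1 cells (255 RPM) and 61 in 4T1 EVs (1052 RPM). In 4TO7 they summed to 0 in cells and 6 in EVs (116 RPM). The liver miRNA miR-122-5p had 1 read in each cell library, 160 in 4T1 EVs and 1092 in 4TO7 EVs, and whether RNA from another source reached the EV libraries was not tested.

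The members together made up 2.51% of miRNA reads in the cells of both lines (15123 reads in 4T1 and 4451 in 4TO7), but 0.676% in 4T1 EVs (392 reads, 0.611% to 0.746%) and 0.499% in 4TO7 EVs (258 reads, 0.440% to 0.564%). The EV and cell intervals did not overlap in either line. The members with the miR-17 seed were the most abundant in all 4 libraries. miR-20a-5p had 9020 reads in 4T1 cells (14954 RPM), 2530 in 4TO7 cells (14242 RPM), 233 in 4T1 EVs (4020 RPM) and 130 in 4TO7 EVs (2515 RPM). It ranked 17 of 560 detected miRNAs in 4T1 cells and 41 of 323 in 4TO7 EVs. miR-17-5p had 3021 reads in 4T1 cells (5008 RPM), 792 in 4TO7 cells (4458 RPM), 92 in 4T1 EVs (1587 RPM) and 54 in 4TO7 EVs (1045 RPM). Both were high in cells and low in EVs, with no overlap of intervals between the compartments.

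miR-18a-5p, whose seed differs from that of miR-17-5p, had 497 reads in 4T1 cells (824 RPM), 179 in 4TO7 cells (1008 RPM), 4 in 4TO7 EVs (77.4 RPM) and 0 in 4T1 EVs, which allows up to 51.8 RPM. It was the member with the fewest reads in both EV libraries. miR-19a-3p had 956 reads in 4T1 cells (1585 RPM), 414 in 4TO7 cells (2330 RPM), 19 in 4T1 EVs (328 RPM) and 9 in 4TO7 EVs (174 RPM). miR-19b-3p had 1109 reads in 4T1 cells (1839 RPM), 472 in 4TO7 cells (2657 RPM), 19 in 4T1 EVs (328 RPM) and 12 in 4TO7 EVs (232 RPM). The miR-19 pair moved side by side, and the tables list many of the same reads under both names.

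miR-92a-3p, the last member of the cluster, had another order. It had 520 reads in 4T1 cells (862 RPM, 790 to 939), 29 in 4T1 EVs (500.3 RPM, 335 to 719), 49 in 4TO7 EVs (948 RPM, 701 to 1253) and 64 in 4TO7 cells (360.3 RPM, 277 to 460.1). The intervals of 4TO7 cells and 4T1 EVs, the libraries with the lowest levels, overlapped, and per genome-aligned read 4T1 EVs lay below 4TO7 cells. By RPM, 4TO7 EVs lay above their cells with no overlap of intervals. The order of levels in 4T1 cells was miR-20a-5p, miR-17-5p, miR-19b-3p, miR-19a-3p, miR-92a-3p and miR-18a-5p. The last pair was not separated beyond counting error. In 4TO7 cells the order was the same apart from the last pair, with miR-92a-3p lowest, and the miR-19 pair was not separated. In 4T1 EVs miR-92a-3p followed miR-17-5p and was not separated from the miR-19 pair. In 4TO7 EVs miR-92a-3p and miR-17-5p were not separated, and neither were miR-19b-3p, miR-19a-3p and miR-18a-5p.

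**Figure D1:**
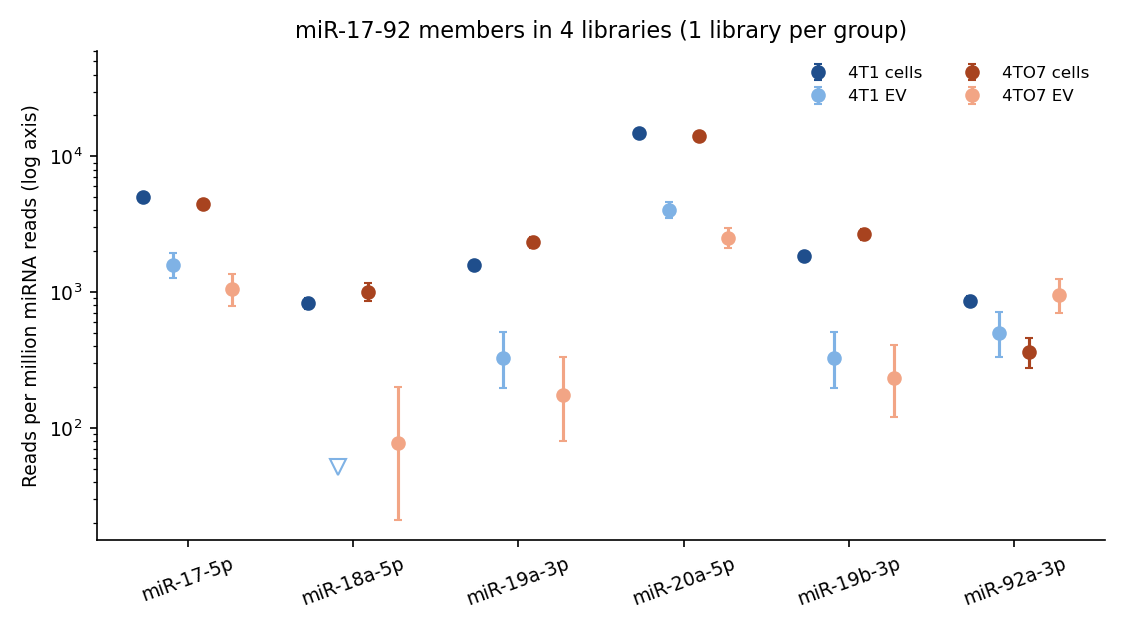
Level of each member in the 4 libraries, in RPM on a log axis. Points are single libraries and bars are exact 95% counting intervals. The open triangle is miR-18a-5p in 4T1 EVs, where its 0 reads are drawn as 3 (51.8 RPM). Cell points lie above EV points of the same line for 5 members, whereas for miR-92a-3p the 4TO7 EV point (948 RPM) lies above the 4TO7 cell point (360.3 RPM).

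EVs were compared with cells in each line to ask which members were under- or over-represented in vesicles. A minimum of 50 reads in either library was set for a comparison. A miRNA was called lower when the whole interval of the RPM ratio lay below 0.5 and higher when it lay above 2. In 4T1, 5 of the 6 members were lower in EVs and none was higher, where 29.8% of all 208 compared miRNAs were lower and 10.6% higher. In 4TO7, 5 of 6 were lower and none was higher, where 38.2% of 131 were lower and 16.8% higher. The median log2 ratio of the members was -2.06 in 4T1 and -2.98 in 4TO7, against -1.06 and -0.96 for all compared miRNAs. In bulk vesicle preparations, fewer vesicles that carry a miRNA and less of it per vesicle cannot be told apart.

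miR-20a-5p was 3.72-fold lower in 4T1 EVs than in cells (3.27 to 4.25) and 5.66-fold lower in 4TO7 EVs (4.75 to 6.81). For miR-17-5p the folds were 3.16 (2.56 to 3.93) and 4.27 (3.24 to 5.73). Both ratios lay below 0.5 in both lines. miR-18a-5p was at least 12.9-fold lower in 4T1 EVs by the exact interval, and 15.9-fold lower with its 0 reads taken as 3. In 4TO7 EVs miR-18a-5p was 13.0-fold lower (4.998 to 48.3). miR-19a-3p was 4.84-fold lower in 4T1 EVs (3.08 to 8.07) and 13.4-fold lower in 4TO7 EVs (6.98 to 29.5). miR-19b-3p was 5.61-fold lower (3.57 to 9.35) and 11.4-fold lower (6.49 to 22.3). The folds of the miR-19 pair are not independent, because the pair shares reads.

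miR-92a-3p was called in neither line, although other settings called it. In 4T1 it was lower in EVs with a minimum of 16 nt (log2 -1.83) and per genome-aligned read (-3.32). In 4TO7 it was higher in EVs with the library sizes rescaled by TMM (1.71) or by median of ratios (1.80), and with all lengths and both strands (2.72). With the main settings its EV/cell ratio was 0.580 in 4T1 (0.385 to 0.844) and 2.63 in 4TO7 (1.78 to 3.88), so it was below 1 in 4T1 and above 1 in 4TO7. The difference of its log2 ratios, 4T1 minus 4TO7, was -2.16 (-2.92 to -1.40), beyond a 2-fold change. It was the only member of 6 called in that comparison, a share close to the 17.8% of 129 miRNAs called in either direction. The differences of the other 5 members ran from -3.04 for miR-18a-5p (-7.26 to 1.18) to 1.43 for miR-19a-3p (0.30 to 2.56), and none was called.

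**Figure D2:**
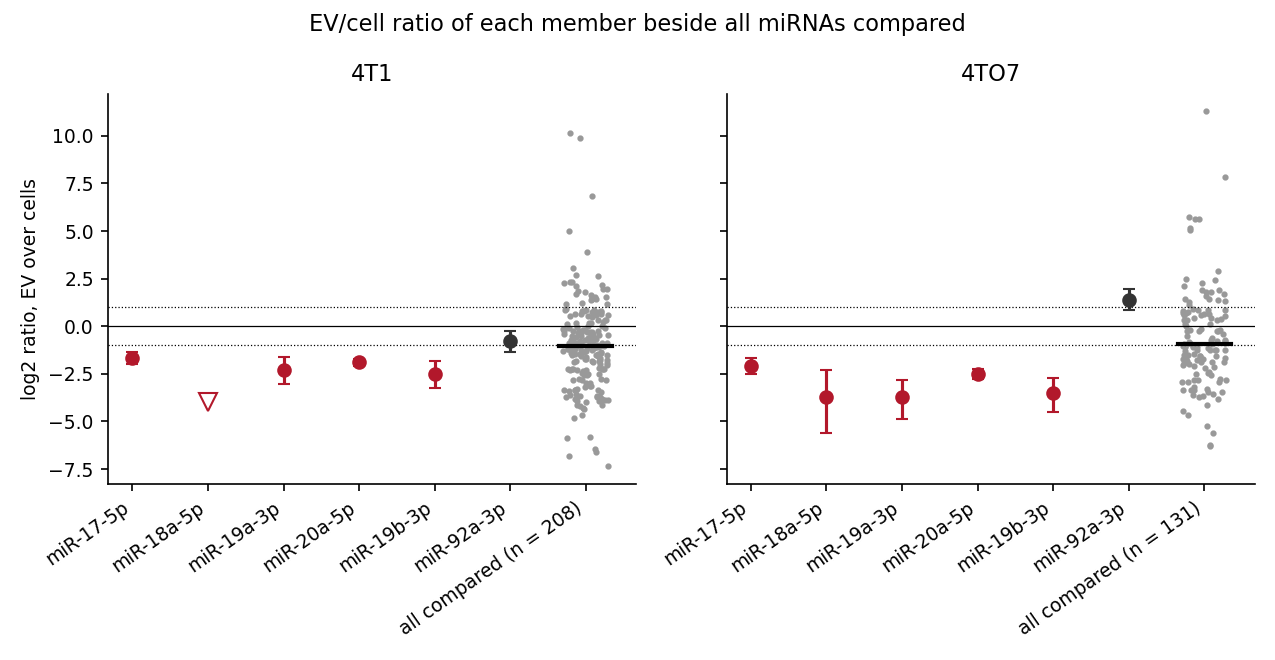
log2 of the EV/cell ratio of RPM for each member in 4T1 (left) and 4TO7 (right), beside all compared miRNAs (grey points, with 0.5 reads added to each count; black line, their median). Bars are 95% counting intervals, dotted lines mark 2-fold and red marks members called lower. The open triangle is the value for miR-18a-5p with its 0 reads taken as 3. miR-92a-3p (dark grey) is at a ratio of 0.580 in 4T1 and 2.63 in 4TO7.

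The 4T1 calls depended on the minimum read length. Of all counted miRNA reads, 53.3% in 4T1 EVs and 29.6% in 4TO7 EVs had 18 to 20 nt, whereas the cell libraries had 9.86% (4T1) and 5.55% (4TO7). When reads of 21 nt or more alone were counted, 1 member was still called lower in 4T1 EVs, miR-18a-5p, where 17.5% of 194 miRNAs were lower. In 4TO7 EVs 5 members were, where 42.6% of 115 were lower. The log2 ratios in 4T1 were then -0.70 for miR-17-5p, -0.94 for miR-20a-5p, -1.28 for miR-19a-3p and -1.498 for miR-19b-3p. The median of the members in 4T1 was -1.11, no lower than the -1.14 of all compared miRNAs. In 4TO7 the medians were -2.55 for the members and -1.11 for all. With that minimum the line difference of miR-92a-3p was -0.87 (-2.10 to 0.35), which was not called, and its 4TO7 log2 ratio was 0.0796.

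Shares of each member within the summed reads of the 6 members depend on no library size. They describe the reads that the miRNA tables list and not the make-up of the cluster itself. In cells, the listed reads of miR-92a-3p equal 4.13% (4T1) and 1.68% (4TO7) of its genome cluster, described below. For miR-20a-5p these values are 84.9% and 81.1%. Reads listed under both miR-19 names count under each, which the intervals do not take into account. miR-20a-5p took 59.6% of the cluster reads in 4T1 cells, 56.8% in 4TO7 cells, 59.4% in 4T1 EVs and 50.4% in 4TO7 EVs. miR-17-5p took 19.98%, 17.8%, 23.5% and 20.9% in the same order. The odds of miR-20a-5p against the other 5 members were 0.992 times as high in EVs as in cells in 4T1 (0.805 to 1.22) and 0.771 times in 4TO7 (0.595 to 0.9996). The odds of miR-17-5p against the other 5 were 1.23 times as high in EVs as in cells in 4T1 (0.958 to 1.56) and 1.22 times in 4TO7 (0.880 to 1.68). Neither member was called.

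miR-92a-3p took 3.44% of the cluster reads in 4T1 cells (3.15% to 3.74%), 1.44% in 4TO7 cells (1.11% to 1.83%), 7.40% in 4T1 EVs (5.01% to 10.5%) and 18.99% in 4TO7 EVs (14.4% to 24.3%). Its share of the listed reads was higher in EVs than in cells in both lines, and the intervals did not overlap. The odds ratio was 2.24 in 4T1 (1.47 to 3.32), not wholly beyond 2-fold, and 16.04 in 4TO7 (10.5 to 24.3), which was called. Counting from 21 nt, this odds ratio was 1.10 in 4T1 (0.542 to 2.02) and 4.65 in 4TO7 (2.23 to 8.97). miR-18a-5p was the member whose share was lower in 4T1 EVs, at 0 of 392 reads against 3.29% in cells, with an upper odds limit of 0.279. In 4TO7 the odds ratios were 0.376 for miR-18a-5p (0.101 to 0.992), 0.353 for miR-19a-3p (0.158 to 0.687) and 0.411 for miR-19b-3p (0.208 to 0.739), all below 1 and none called.

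**Figure D3:**
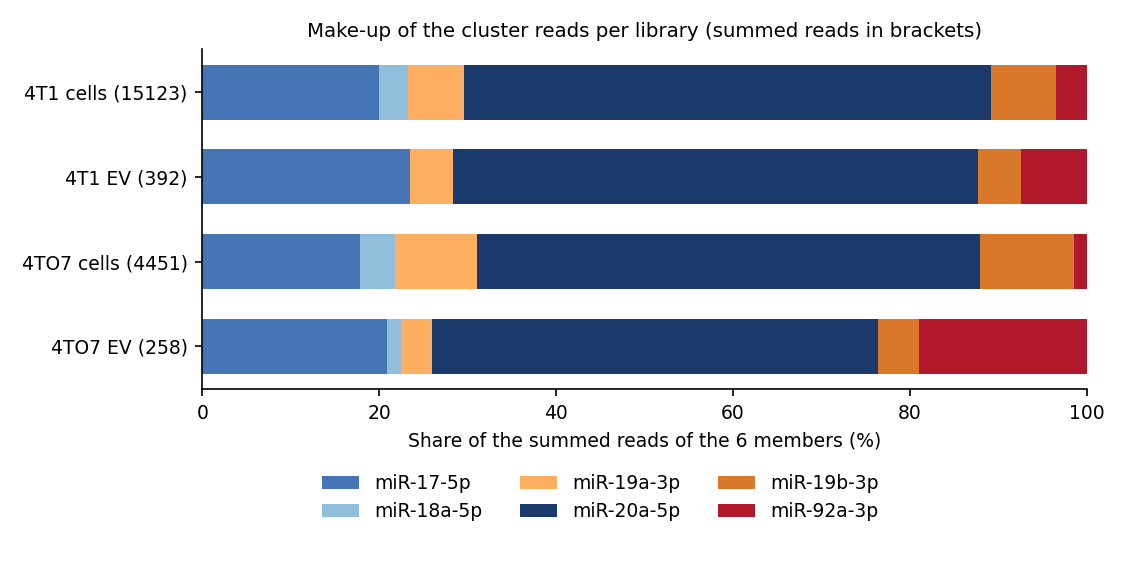
Share of each member in the summed miRNA table reads of the 6 members, in percent, 1 bar per library with the number of reads in brackets. The miR-92a-3p segment (red) grows from 3.44% among 4T1 cell reads to 7.40% in 4T1 EVs and from 1.44% among 4TO7 cell reads to 18.99% in 4TO7 EVs, while miR-20a-5p (dark blue) stays between 50.4% and 59.6%.

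Between the cell lines, no member was called in either direction, where 18.8% of 208 miRNAs were called. The ratio of 4T1 to 4TO7 cells was 1.05 for miR-20a-5p (1.00 to 1.10), 1.12 for miR-17-5p (1.04 to 1.22) and 0.818 for miR-18a-5p (0.688 to 0.976). miR-19a-3p was at 0.680 (0.605 to 0.765) and miR-19b-3p at 0.692 (0.621 to 0.772). The largest ratio of the 6 was that of miR-92a-3p, 2.39 (1.84 to 3.15). Relative to all genome-aligned reads instead of miRNA reads, miR-17-5p, miR-20a-5p and miR-92a-3p were called higher in 4T1 cells, which is 3 of 6 where 64.4% of all 208 miRNAs were. That denominator moved the median log2 ratio of all compared miRNAs by 1.503. Between the EV libraries 2 members had enough reads to be compared, and neither was called, where 41.5% of 82 miRNAs were called. The log2 ratio of 4T1 to 4TO7 EVs was 0.60 for miR-17-5p and 0.67 for miR-20a-5p.

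In the miRNA tables the guide arm had more reads than the passenger arm in every hairpin and library with reads of either. miR-17-5p had 30.8 reads per read of miR-17-3p in 4T1 cells (25.2 to 38.1), 21.4 in 4TO7 cells (15.4 to 30.6) and 23 in 4T1 EVs (8.68 to 86.2). miR-92a-3p had 12.4 reads per read of its passenger miR-92a-1-5p in 4T1 cells (9.03 to 17.4), 7.11 in 4TO7 cells (3.52 to 16.3) and 12.3 in 4TO7 EVs (4.49 to 46.7). The arm ratios of different hairpins are not ranked here, since the tables held unequal parts of the genome alignments of miR-17-5p and miR-92a-3p (values with the genome clusters below). In the cells, miR-20a-3p had 4 reads in 4T1 and 1 in 4TO7, and miR-19b-1-5p had 2 in each. miR-18a-3p had 20 in 4T1 and 3 in 4TO7, and miR-19a-5p had 0 in all libraries. The passenger arms together had 5 reads in each EV library. Of them miR-17-3p in 4T1 reached the minimum for a comparison, with 4 EV reads against 98 and a ratio of 0.425 (0.113 to 1.12), and was not called.

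The summed reads of the 5 members annotated at 23 nt, most of them from miR-20a-5p and miR-17-5p, were mainly full length in vesicles and in cells. Of these reads, 90.9% in 4T1 EVs (87.5% to 93.7%), 96.2% in 4TO7 EVs (92.6% to 98.3%), 92.1% in 4T1 cells and, for 4TO7 cells, 91.5% had 23 nt. None had a read of 18 to 20 nt in either EV library, which gives an upper limit of 1.01% in 4T1 and 1.75% in 4TO7. In cells such reads were 0.178% in 4T1 and 0.228% in 4TO7. These 5 members thus did not show the short reads that made up 53.3% of all miRNA reads in 4T1 EVs. The members differed among themselves in 4T1 cells, where 61.9% of miR-19a-3p, 66.7% of miR-19b-3p and 72.0% of miR-18a-5p reads were full length, against 96.0% for miR-17-5p and 98.2% for miR-20a-5p. In 4T1 EVs 8 of 19 reads of miR-19a-3p and of miR-19b-3p were full length, 42.1% (20.3% to 66.5%), and their most common length was 22 nt.

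miR-92a-3p had shorter reads in EVs than in cells. Full-length reads of 21 nt were 76.9% in 4T1 cells (73.1% to 80.5%), 84.4% in 4TO7 cells (73.1% to 92.2%), 37.9% in 4T1 EVs (20.7% to 57.7%) and 24.5% in 4TO7 EVs (13.3% to 38.9%). The most common length was 20 nt in 4TO7 EVs and 21 nt in the other 3 libraries. The odds of a full-length read were 0.184 times those in cells in 4T1 (0.0763 to 0.425) and 0.0622 times in 4TO7 (0.0210 to 0.167). For each of the other members with EV reads, the interval of this odds ratio contained 1. It did so narrowly for miR-19b-3p in 4T1, at 0.363 (0.126 to 1.0005). At least 96.6% of the reads of each member with reads began at the annotated first base, in every library, and no member had an antisense read of 18 nt or more.

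**Figure D4:**
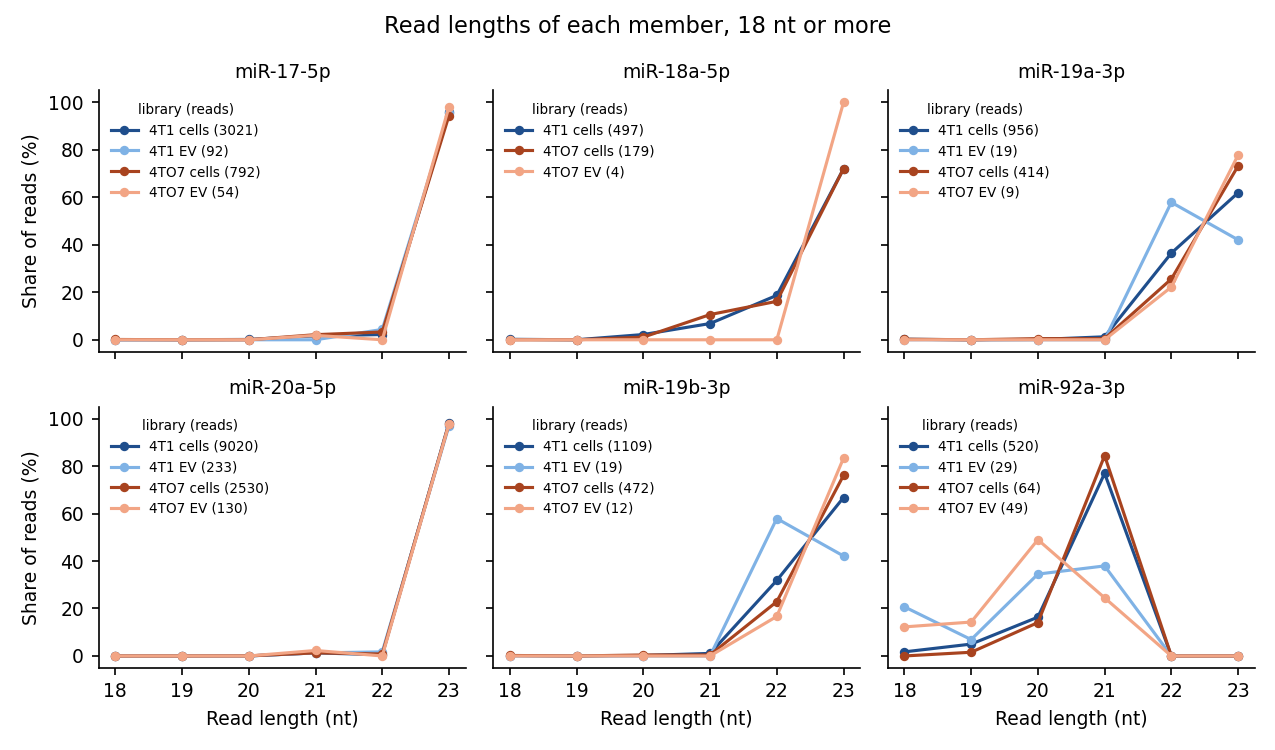
Share of each member's reads, in percent, at each read length from 18 to 23 nt, 1 line per library with its reads in brackets; miR-18a-5p has no line for 4T1 EVs, where it had 0 reads. Reads of miR-17-5p and miR-20a-5p are nearly all of 23 nt in every library, whereas miR-92a-3p peaks at 21 nt in cells and at 20 nt in 4TO7 EVs; lengths above the annotated end could not be listed.

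These lengths are bounded above, because a read that ran past the annotated 3′ end had no full match in the miRNA reference. The genome clusters, a second readout of the same libraries made without that reference, were used to see what was missing. Clusters on chromosome 14 of mm9 start at 115442904, 115443403 and 115443696 in 4T1 cells. Their spacing of 499 nt and 792 nt from the first equals the spacing of miR-17-5p, miR-20a-5p and miR-92a-3p in GRCm38 to the base, and no other placement matched more than 1 member to the 74 clusters of that chromosome. They were matched by this spacing, with no conversion of coordinates. No cluster at the spacing of the other 3 members was listed.

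For miR-17 and miR-20a the tables accounted for most of the cluster alignments. In 4T1 cells the miR-17 cluster held 4140 alignments, and the 3021 table reads equal 73.0% of them. The miR-20a cluster held 10626 in 4T1 cells, and table reads equal 84.9% of them. It held 3120 in 4TO7 cells, and table reads equal 81.1%. The miR-92a cluster was the largest of the 3, with 12593 alignments for 4T1 cells and 3805 for 4TO7 cells, all on the plus strand. The 520 and 64 table reads of miR-92a-3p equal 4.13% (3.79% to 4.49%) and 1.68% (1.30% to 2.14%) of these. A cluster of 10885 alignments in 4T1 cells was assigned to the chromosome X copy of miR-92a by a single spacing, with a tolerance of 2 nt. It lay 690 nt from the cluster assigned to miR-106a, against 689 nt in GRCm38. Since a read could be placed at up to 6 positions, the miR-92a clusters of both chromosomes can hold the same reads. The cluster tables give no read lengths, so whether the reads absent from the miRNA table ran past base 21 was not tested.

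The order of the members and the contrast of the lines changed with the readout. In the clusters miR-92a had 1.19 alignments per alignment of miR-20a in 4T1 (1.15 to 1.22) and 1.22 in 4TO7 (1.16 to 1.28). In the miRNA tables the same ratio was 0.0576 (0.0527 to 0.0630) and 0.0253 (0.0194 to 0.0324). The ratio of 4T1 to 4TO7 was 0.972 in the clusters (0.920 to 1.03) and 2.28 in the tables (1.75 to 3.01). The higher level of miR-92a-3p relative to miR-20a-5p in 4T1 cells was therefore seen in the tables and not in the clusters, where the interval contains 1.

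No EV library listed a cluster for any member. The smallest total listed was 1300 in 4T1 EVs and 1305 in 4TO7 EVs. If every cluster at or above that total was listed, the miR-92a cluster per genome-aligned read was at most 0.183 times its cell value in 4T1 EVs and at most 0.748 times in 4TO7 EVs. The table ratio on the same denominator was 0.0988 in 4T1 (0.0655 to 0.144) and 1.67 in 4TO7 (1.13 to 2.46). In 4TO7 the table interval lies wholly above the cluster limit, so under that condition the higher miR-92a-3p level of 4TO7 EVs holds for the reads that the table could list and not for the cluster.

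**Figure D5:**
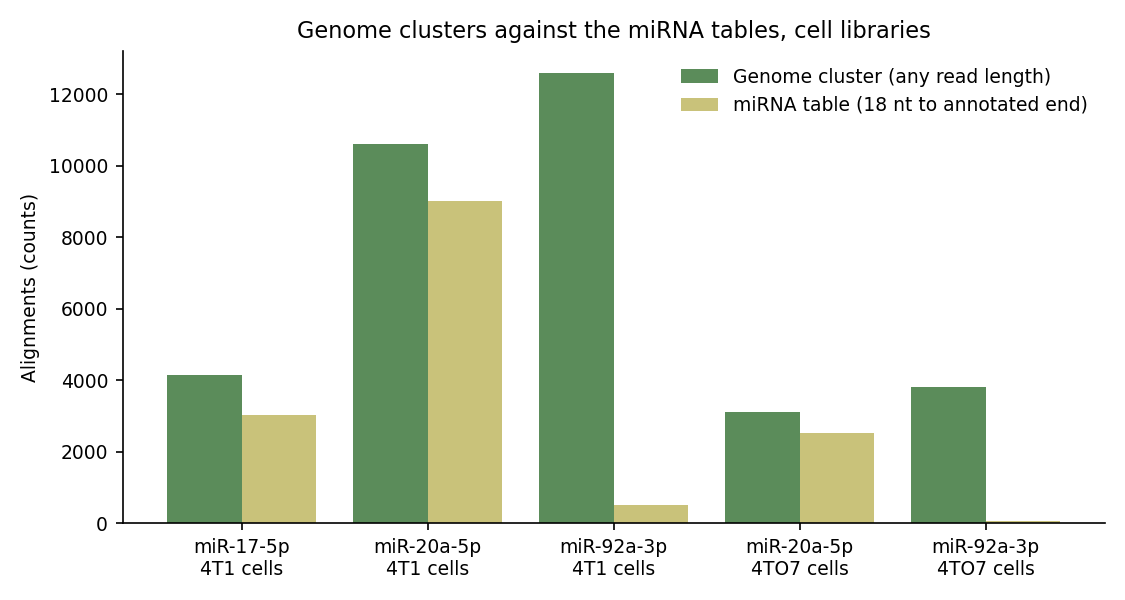
Alignments (counts) in the genome clusters matched to 3 members and reads of the same members in the miRNA tables, for the cell libraries; the miR-17 cluster was not listed in 4TO7 cells. Bars for miR-17-5p and miR-20a-5p are of similar height, whereas miR-92a-3p has 12593 cluster alignments against 520 table reads (4T1) and 3805 against 64 (4TO7).

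Near-identical miRNAs shared reads, since an alignment with up to 1 mismatch was listed under every name it matched. miR-106a-5p had 2922 reads in 4T1 cells, 762 in 4TO7 cells, 80 in 4T1 EVs and 50 in 4TO7 EVs, close to miR-17-5p in every library. For miR-19a-3p and miR-19b-3p, the counts were equal at 2 of 2 combinations of start and length in 4T1 EVs, 1 of 2 in 4TO7 EVs and 3 of 6 in each cell library. After each pair was collapsed to its larger count, 4 of 5 entries were called lower in EVs in both lines, where 29.1% of 206 miRNAs were lower in 4T1 and 37.2% of 129 in 4TO7. How much of miR-17-5p came from the chromosome 14 locus cannot be told apart from miR-106a-5p by the shared reads. Other miRNAs of the chromosome X cluster were scarce in the cells. Counts of miR-20b-5p were 12 (4T1) and 7 (4TO7), against 9020 and 2530 for miR-20a-5p. Those of miR-18b-5p were 1 and 0, against 497 and 179 for miR-18a-5p. For miR-106a-3p, miR-363-3p, miR-19b-2-5p and miR-92a-2-5p they were 0 in both lines. The part of each locus was not tested.

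The paralog list holds 15 mature miRNAs from the clusters of miR-106a on chromosome X and miR-106b on chromosome 5 and from other hairpins with the miR-92a seed. Of these, 4 of 7 compared were lower in 4T1 EVs and 4 of 6 in 4TO7 EVs, with none higher. Among all miRNAs 29.8% of 208 were lower in 4T1 and 38.2% of 131 in 4TO7. The medians of the paralog log2 ratios were -1.80 and -2.67, against -1.06 and -0.96 for all compared miRNAs. The lower paralogs include miR-106a-5p in both lines, which shares reads with miR-17-5p and is not a separate observation. Among paralogs with the miR-17 seed, miR-93-5p was 4.62-fold lower in 4T1 EVs (3.57 to 6.11) and 9.29-fold lower in 4TO7 EVs (6.54 to 13.7), and miR-106b-5p had 4 and 3 EV reads against 687 and 301 in cells. Among paralogs with the miR-92a seed the values went several ways. miR-25-3p had EV/cell ratios of 0.599 in 4T1 (0.540 to 0.663) and 0.470 in 4TO7 (0.417 to 0.528), and neither was called. miR-32-5p was 7.95-fold lower in 4T1 EVs (3.08 to 29.4), with 4 reads against 331, and had 1 read against 112 in 4TO7. miR-92b-3p, which differs from miR-92a-3p by U10C and G21C over the first 21 bases, had 16 EV reads and 109 cell reads in 4T1, at an EV/cell ratio of 1.53 (0.843 to 2.59). In 4TO7 it had 31 reads in EVs and 31 in cells, below the minimum for a call, with a ratio of 3.44 (2.02 to 5.84).

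Outside these lists, the miRNAs whose levels over the 4 libraries were most like the mean of the members were miR-9-5p, miR-196a-5p, miR-669d-5p, miR-196b-5p and miR-148b-5p, out of 196 candidates. Likeness was the Euclidean distance between centred log2 RPM values, which was 0.212 for miR-9-5p and 0.719 for miR-148b-5p. miR-9-5p had 13583 RPM in 4T1 cells, 12260 in 4TO7 cells, 1915 in 4T1 EVs and 2225 in 4TO7 EVs. Among the members themselves the distance to that mean ran from 0.717 for miR-20a-5p to 2.94 for miR-92a-3p and 3.40 for miR-18a-5p. miR-9-5p was thus nearer to the mean than any member was, and miR-669d-5p and miR-148b-5p had 0 reads in both EV libraries.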

How the data were processed

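Each library had an alignment log, a miRNA table, a genome cluster table and a table of read lengths, the last not used here. Per the submitters' processing notes, cutadapt, Bowtie and bedtools were used with mm9, and versions are not given in the sources used here. The logs that the authors deposited record Bowtie runs with 1 mismatch allowed, up to 6 genome positions and up to 10 mature miRNA matches per read. What the authors deposited in the miRNA and cluster tables are raw alignment counts. The 4T1 EV table also has an RPM column deposited by the authors, filled from 18 nt upwards, which was used only to set the minimum length.

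For each mature miRNA, sense alignments from 18 nt upwards were added up, and their total served as library size. Members were compared by exact conditional binomial 95% intervals of RPM ratios for miRNAs with 50 or more reads in at least 1 library, and called when wholly beyond 2-fold. Log2 values had 0.5 reads added. Shares have Clopper-Pearson intervals, odds ratios exact conditional intervals, and line differences summed Poisson variances. The miRNAs named were the 6 members, their passenger arms, 15 paralogs and the 5 miRNAs nearest to the members' mean. The members and lists were chosen with earlier results of these data known. RefSeq matched 6 of 6 members, 5 of 6 passenger arms and 15 of 15 paralogs. Python 3.11.15 with scipy 1.17.1 and R 4.3.3 with edgeR 4.0.16 (TMM factors only) were used. The interval calls were tested on simulated independent Poisson counts. These hold no shared reads and no spread between cultures, so the test says nothing about either.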

Additional observations from a re-analysis of the deposited data

Results flagged for a closer look

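The EV/cell log2 ratio of miR-92a-3p was lower in 4T1 than in 4TO7 by a difference of -2.16 (95% counting interval -2.92 to -1.40, 1 library per group), and this difference between the lines was itself tested and lay beyond 2-fold. It was the only member of 6 called, a share close to the 17.8% of 129 miRNAs that were called. Reads of 18 to 20 nt made up 62.1% of its reads in 4T1 EVs and 75.5% in 4TO7 EVs, against 23.1% and 15.6% in the cells. The part of read length in the difference was tested only through the minimum length, where 21 nt gave -0.87 (-2.10 to 0.35). Table reads of miR-92a-3p equal 4.13% of its genome cluster in 4T1 cells and 1.68% in 4TO7 cells. Relative to miR-20a, the ratio of 4T1 to 4TO7 cells was 2.28 in the tables and 0.972 in the clusters. How this bears on the difference was not tested.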

How the results depend on the processing

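No paired analysis was possible because each group had 1 library. Libraries of 1 per group also leave out any spread between cultures, and the EV libraries held 392 and 258 reads of the members, so small differences there were not detectable. Of the planned and added alternatives, the counts of members called that moved by over 1.5 times were these. With a minimum of 21 nt, the members called in 4T1 EVs against cells went from 5 to 1, all lower. All compared miRNAs called lower went from 29.8% of 208 to 17.5% of 194. The line differences called went from 1, where 17.8% of 129 miRNAs were called, to 0. The share of all miRNAs called with that minimum was not computed, so the fall cannot be set against it. With all lengths and both strands, 1 member was called between the cell lines in place of 0. It was higher in 4T1, where 156 of 1798 miRNAs were higher and 17 lower. By share within the cluster in 4T1, 2 were called in place of 1 with that setting. With genome-aligned reads as the denominator, 3 were called higher in 4T1 cells than in 4TO7 cells, where 64.4% of 208 miRNAs were. With miR-92a-3p left out, an alternative chosen after seeing the data, 0 were called by share in 4TO7 in place of 1.

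Directions changed as follows, and the cause was not tested. With all lengths and both strands, the log2 ratios turned to 0.12 for miR-92a-3p in 4T1 EVs against cells, 0.11 for miR-18a-5p between cells, and -0.56 for miR-17-5p and -0.44 for miR-20a-5p between EVs. The line differences turned to -1.18 for miR-17-5p, -0.0998 for miR-19a-3p, -1.01 for miR-20a-5p and -0.36 for miR-19b-3p. With genome-aligned reads, which moved the median of all miRNAs by -2.55 in 4T1 EVs against cells and -0.66 in 4TO7, the line differences of the same members were -1.47, -0.47, -1.29 and -0.89, and the cell log2 ratios of miR-18a-5p, miR-19a-3p and miR-19b-3p were 1.21, 0.95 and 0.97. Median-of-ratios scaling gave -0.0858 for miR-20a-5p between cells, and a minimum of 16 nt gave a line difference of -0.15 for miR-17-5p. The odds ratios within the cluster that changed side lay near 1. For miR-20a-5p they were 1.09 with 21 nt, 1.00 with reads at the first base and 1.11 without miR-92a-3p in 4T1, and 1.07 with 21 nt and 1.21 without miR-92a-3p in 4TO7. Between EVs they were 0.932 with 21 nt and 0.907 without miR-92a-3p for miR-19b-3p, and 0.974 without miR-92a-3p for miR-17-5p. The share of higher among all called miRNAs in 4T1 EVs against cells was 26.2%, or 47.0% after median-of-ratios scaling and 2.73% per genome-aligned read. The corresponding shares were 30.6%, 41.9% and 16.05% in 4TO7 EVs against cells, and 71.8%, 60.5% and 98.5% between the cell lines. Between EVs the share was 58.8%, or 42.9% with TMM and 37.9% per genome-aligned read. Median-of-ratios scaling left miR-17-5p uncalled in 4T1 EVs against cells, at -1.21. Calls of miR-92a-3p under other settings stand in the report. With all lengths and both strands miR-17-5p was no longer called in 4TO7 EVs against cells, at -0.73.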
